A study of Mus musculus with 2 samples.

Results

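The cells described here are astrocytes of mouse cerebral cortex in which UMIs of Aqp4, Slc6a11 and Slc4a4 together were at least as many as those of Thbs4, Sfrp1 and Tnc. They numbered 1903 of the 14265 cells kept from 19774 barcodes, 559 in the N-PRα-KO library and 1344 in the WT library. The N-PRα-KO mice carried Nestin-Cre and floxed Pdgfra (Nestin-Cre;Pdgfraflox/flox), so that Cre acts in the neural lineage, which includes astrocytes, and the WT mice were C57BL/6J. Cortex was dissociated together with its meninges and cells were enriched magnetically with an antibody against CD140a, the protein made from Pdgfra. There was 1 library per genotype, so no test between genotypes was possible, and neither the age and sex of the mice nor how many were pooled is stated. Each interval below is an exact 95% interval for counting error only, and a difference between the libraries cannot be told apart from a difference between animals, days or preparations. Nor can it be told apart from an effect of the enrichment, whose target is the product of the floxed gene.

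The members were chosen by their own UMI counts. A kept cell had 300 or more genes and no more than 25% mitochondrial UMIs. A member had at least 0.3% of its UMIs on Slc1a2, Slc1a3, Aldoc and Gja1, under 0.1% on the cilium genes Ccdc153, Tmem212 and Dynlrb2, under 0.4% on the collagen genes Col1a1, Col1a2 and Col3a1, and under 0.2% on the oligodendrocyte-lineage genes Lhfpl3, Tnr, Cacng4, Olig1 and Sox10. Cells that met all of this but had fewer UMIs of Aqp4, Slc6a11 and Slc4a4 than of Thbs4, Sfrp1 and Tnc are called Thbs4-side astrocytes here (198 N-PRα-KO and 600 WT cells).

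Astrocytes clear glutamate and GABA from around synapses, buffer potassium and move water through channels on the endfeet that wrap blood vessels. Aqp4 makes the main water channel of those endfeet, Slc6a11 a GABA transporter, Slc4a4 a sodium bicarbonate cotransporter and Slc1a2 the glutamate transporter GLT-1. During postnatal maturation cortical astrocytes lose genes of radial glia such as Fabp7 and gain genes of metabolic support and coupling such as Aldh1l1, Gjb6 and Slc1a2. Astrocytes that keep germinal features express Thbs4 or Tnc instead.

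The N-PRα-KO file held 41982217 UMIs in 8336 barcodes and the WT file 43459947 UMIs in 11438 barcodes. Of these, 4196 (50.3%) and 10069 (88.0%) were kept. In the N-PRα-KO library 4126 barcodes exceeded the mitochondrial limit, against 1329 in the WT library, and 1053 N-PRα-KO and 391 WT barcodes met every part of the rule but that one. Kept cells had a median of 5790.5 UMIs (N-PRα-KO) and 3284 UMIs (WT). Cells rich in oligodendrocyte-lineage markers numbered 50 (N-PRα-KO) and 4275 (WT), which alters what any share of kept cells is a share of. The 2 files come from different versions of the same pipeline, so that version and genotype cannot be told apart. Levels are in CPM, the summed UMIs of a gene per 1000000 UMIs of the members of a library. Xist stood at 372 CPM in N-PRα-KO members and 1138 CPM in WT members, and the Y-linked gene Ddx3y at 69.6 and 0.173 CPM, so the animals behind the libraries differed in sex make-up. The 2 files shared 105 barcode indices, none of them among members. Pdgfra itself, the targeted gene, stood at 32.9 CPM (27.3 to 39.3) in N-PRα-KO members and 111 CPM (102 to 120) in WT members. The labels do not say which exons are removed, so a count of transcripts does not check the deletion.

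Members were 13.3% of kept cells in the N-PRα-KO library (12.3 to 14.4%) and 13.3% in the WT library (12.7 to 14.0%). Members of the N-PRα-KO library held 3705131 UMIs, 12.3% of those of its kept cells, and WT members held 5794805 UMIs, 14.4%. The median member had 5184 UMIs, 2243 genes and 17.9% mitochondrial UMIs in the N-PRα-KO library, against 3510.5 UMIs, 1627.5 genes and 16.3% in the WT library. With the mitochondrial limit at 50%, chosen after seeing the data, the shares were 19.1% and 15.6%, so the likeness of the 2 shares held for the limit the rule sets and not for that one.

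The values that chose the cells are given as a description. The median share of UMIs on Slc1a2, Slc1a3, Aldoc and Gja1 was 3.11% in N-PRα-KO and 2.79% in WT members, and 60 N-PRα-KO members (10.7%) and 100 WT members (7.44%) lay between the 0.3% limit and 1%. The cells nearest to that limit had 0.304% inside and 0.291% outside in the N-PRα-KO library, and 0.304% and 0.299% in the WT library. For the cilium genes the nearest values were 0.0954% inside and 0.101% outside in N-PRα-KO cells and 0.0873% and 0.1% in WT cells, for the collagens 0.387% and 0.402% (N-PRα-KO) and 0.399% and 0.450% (WT), and for the oligodendrocyte-lineage genes 0.179% and 0.257% (N-PRα-KO) and 0.193% and 0.202% (WT). The median N-PRα-KO member had 15 UMIs of Aqp4, Slc6a11 and Slc4a4 and none of Thbs4, Sfrp1 and Tnc, and the median WT member had 18 and 1. In 32 N-PRα-KO members (5.72%) and 109 WT members (8.11%) both sums were equal, and in 11 and 33 of these both were 0. Over all members Aqp4 stood at 1616 CPM in the N-PRα-KO and 2765 CPM in the WT library, Slc6a11 at 572 and 861 CPM, Slc4a4 at 1746 and 1877 CPM, and Slc1a2 at 14956 and 12978 CPM. Aqp4 was thus lower and Slc1a2 slightly higher in the N-PRα-KO cells, while Slc4a4 was nearly level.

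The label was set beside 13 astrocyte genes outside the rule. All 13 were present above 20 CPM in both libraries' members. That level alone does not check the label. In N-PRα-KO members the lowest of 6 endothelial markers stood at 99.1 CPM and the lowest of 7 microglial markers at 25.6 CPM. In WT members these lowest values were 2.93 and 1.55 CPM. With every cell thinned to 2000 UMIs, which left 464 N-PRα-KO and 1002 WT members (95 and 342 were shallower), Aqp4 was detected in 76.1% of N-PRα-KO and 87.6% of WT members (86.0% and 89.1% unthinned). In cells rich in microglial markers, which should lack it, it was detected in 5.70% of N-PRα-KO and 4.29% of WT cells at the same depth. Aqp4 is part of the rule, so these shares describe the selection and do not check the label. Gjb6, the gap junction protein connexin 30, was detected in 52.6% of N-PRα-KO and 27.1% of WT members (71.7% and 40.0% unthinned), against 4.19% and 1.02% of microglia-marker cells. Slc1a2 was found in 50.4% of N-PRα-KO and 30.5% of WT microglia-marker cells, so its presence in a cell does not mark an astrocyte here. Its level was 14956 and 12978 CPM in members against 377 and 217 CPM in microglia-marker cells. That gap is no check: Slc1a2 is part of the rule, and microglia-marker cells were taken only from cells under its 0.3% limit. The word parenchymal was not tested, since no file gives a cell's position.

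**Figure D1:**
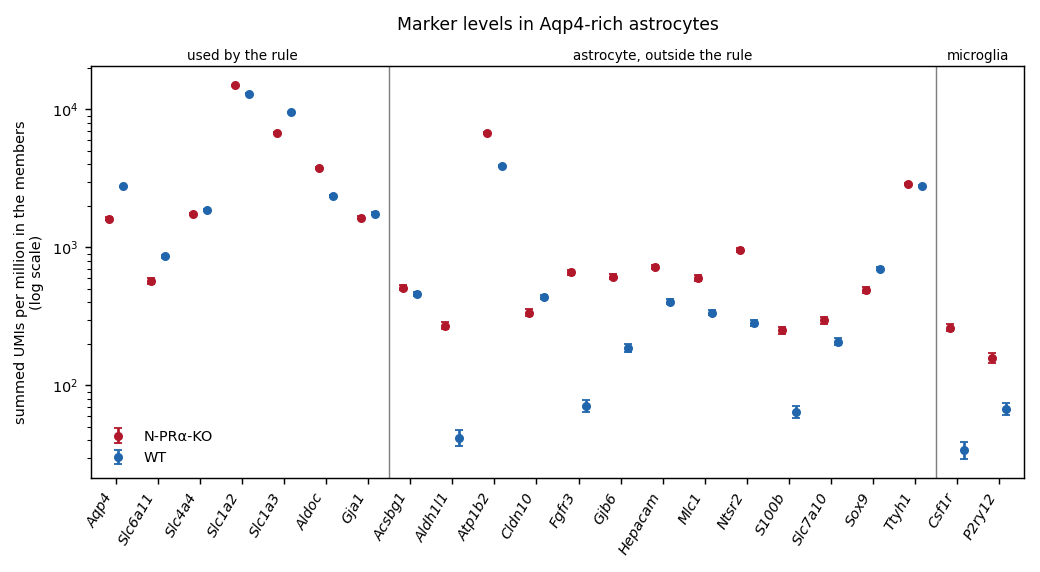
Level (CPM, log axis) in members of the N-PRα-KO library (left in each pair) and the WT library (right), with exact 95% counting intervals, for the 7 astrocyte genes of the rule, 13 astrocyte genes outside it and the microglial genes Csf1r and P2ry12. Aqp4 and Slc1a2 sit above 1000 CPM in both libraries, and among the astrocyte genes plotted Fgfr3 and Aldh1l1 have the largest ratios, 661 against 71.1 CPM and 271 against 41.8 CPM.

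RNA of other cell types was present in members of both libraries, and more so in N-PRα-KO members for vascular, microglial and choroid plexus genes. The 6 endothelial markers summed to 1868 CPM in N-PRα-KO and 187 CPM in WT members, all 6 higher in N-PRα-KO, against 15487 and 15354 CPM in cells rich in those markers. The 7 microglial markers summed to 1018 and 277 CPM, all 7 higher, and the 6 mural markers to 883 and 269 CPM, all 6 higher. The choroid plexus list summed to 1831 and 107 CPM, of which Ttr, the transthyretin gene, gave 1827 and 106 CPM, with 1 of its 3 genes at 0 in each library. The 6 fibroblast markers summed to 364 and 73.2 CPM with 1 at 0 in the WT library, the 6 ependymal markers to 290 and 36.6 CPM, and the 7 neuronal markers to 153 and 62.6 CPM. The 3 olfactory markers summed to 34.8 and 4.66 CPM, with 2 at 0 in the WT library. The lists lower in N-PRα-KO members were the oligodendrocyte precursor list at 1542 against 2118 CPM, most of it Cspg5, which astrocytes also express, the neuroblast list at 149 against 260 CPM, the germinal zone list at 841 against 1394 CPM, and the oligodendrocyte list at 221 against 270 CPM. Of their genes 1 of 7, 1 of 6, 2 of 7 and 5 of 6 were higher in N-PRα-KO members, so the oligodendrocyte sum was lower through a single gene. Single cells with 1% or more of their UMIs on endothelial markers numbered 32 (N-PRα-KO) and 4 (WT). The part of this RNA in each difference below was not tested, except where a value without those cells is given.

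Clustered within each library, N-PRα-KO members fell into 6 groups and WT members into 8, and not all of these were led by astrocyte genes. In the N-PRα-KO library cluster 0 (234 cells, 41.9%) was led by Lgr6, Grin2c, Kcnk1, Hapln1 and Htra1, with Gjb6 at 869.7 CPM. Cluster 4 (35 cells, 6.26%) was led by Myoc, Reln, Gria1, Fxyd6 and Sulf2, with Myoc, the myocilin gene, at 2004 CPM and Gfap, the intermediate filament of fibrous and reactive astrocytes, at 7269.8 CPM. Cluster 1 (149 cells, 26.7%) was shallow, with a median of 2035 UMIs, and was led by Fads2, Taf13, Cdo1, Car8 and Rb1. Cluster 2 (81 cells, 14.5%) was led by genes that include Tmem132b, Nkain2 and Plagl1 and also held Thbs4 at 192 CPM and Sfrp1 at 222 CPM, so it lay towards the Thbs4-side cells. Cluster 3 (46 cells, 8.23%) was led by the endothelial-associated genes Ly6c1, Ly6a, Abcb1a, Flt1 and Itm2a, with Cldn5 at 2165 CPM and Aqp4 at only 179.7 CPM, and cluster 5 (14 cells) by P2ry12, Siglech, Gpr34, Ctss and Ly86, genes of microglia.

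In the WT library cluster 0 (532 cells, 39.6%) was led by Igfbp2, Grm5, Fzd10, Apln and Gabbr2, and cluster 3 (205 cells, 15.3%) by Myoc, Gfap, Fgfbp3, Fxyd6 and Hopx, with Gfap at 1960.0 CPM and Myoc at 183 CPM. Cluster 1 (254 cells, 18.9%, median 1290 UMIs) was led by Ogdhl, Gabbr2, Scd1, Kcnd2 and Slc48a1. Cluster 2 (228 cells, 17.0%), with Sfrp1 at 510.5 CPM and Thbs4 at 118 CPM, was led by Tspan18, Abca8a, Gdf10, Enkur and Prelp. Cluster 4 (88 cells, 6.55%) was led by the division genes Mki67, Ccna2, Prc1, Top2a and Ccnb1. Cluster 5 (17 cells) was led by Lyve1, Mrc1, Cx3cr1, P2ry12 and Fcer1g, genes of macrophages and microglia, cluster 6 (13 cells) by Ly6c1, Fbln5, Ptprb, Flt1 and Ly6a, and cluster 7 (7 cells) by genes that include Frzb, Npy, Igf1 and Clca3a1, with Fabp7 at 33804 CPM. Both libraries thus held a large Gjb6-rich cluster and a smaller Myoc and Gfap cluster. These 4 clusters (269 N-PRα-KO and 737 WT cells) are called the astrocyte-led clusters and give a second value for many differences below. They are those in which Myoc and Gfap, or Gjb6 and Slc7a10, stood at least 1.5 times higher than in the other members. This choice was made after seeing the data. The Myoc and Gfap cluster gave 35 of the 269 N-PRα-KO cells and 205 of the 737 WT cells. The mix of clusters behind each second value thus differed between the libraries, and its part in those values was not tested. The name astrocyte-led does not mean that the clusters left out lack astrocytes. Cluster 1, left out in each library, had the highest median share of UMIs on Slc1a2, Slc1a3, Aldoc and Gja1 of all clusters there. That share was 3.91% in the N-PRα-KO library, against 3.24% and 2.19% in its 2 chosen clusters. In the WT library it was 3.54%, against 3.13% and 2.47%. Agt, the angiotensinogen gene, stood at 816 CPM in the N-PRα-KO Myoc and Gfap cluster and 14.8 CPM in the WT one.

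**Figure D2:**
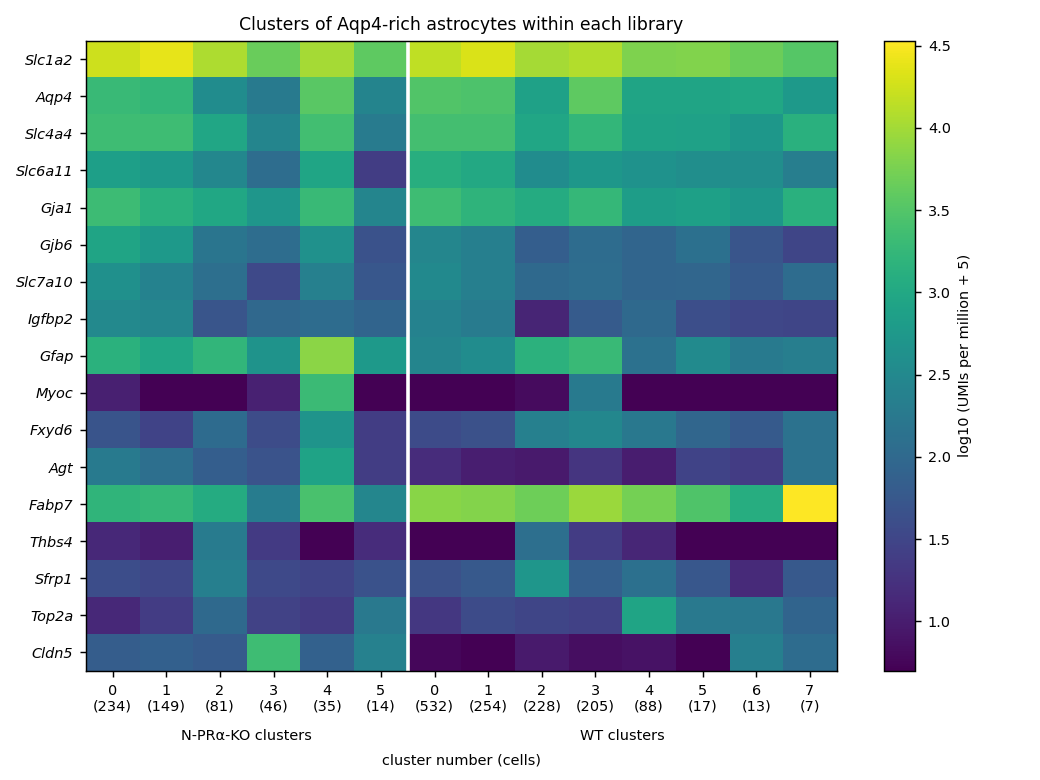
Level of selected genes (colour, log10 of CPM + 5) in the 6 member clusters of the N-PRα-KO library (left) and the 8 of the WT library (right). Myoc and Gfap are brightest together in N-PRα-KO cluster 4 and WT cluster 3, Top2a in WT cluster 4 and Cldn5 in N-PRα-KO cluster 3.

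Across the transcriptome, 7183 genes reached 20 CPM in members of either library. Of these, 1209 (16.8%) were at least 2-fold higher in N-PRα-KO members and 593 (8.26%) at least 2-fold lower, with a median log2 ratio of −0.12, and 3199 (44.5%) lay above 0. The ratio followed the base composition of the transcript end: over the last 500 bases, GC content and log2 ratio had a Spearman rho of 0.61 across 7157 genes, which are not independent replicates. Among 5 equal groups of genes sorted by GC, the lowest (median GC 32.6%) centred on a log2 ratio of −0.64 and the highest (median GC 53%) on 0.92. With this trend removed, 667 genes (9.32%) were 2-fold higher and 582 (8.13%) 2-fold lower. With TMM scaling the counts were 1074 and 813 and the median of all genes moved by over 0.1 on the log2 scale, to −0.23. Each ratio below is therefore read against the median of all genes, and for a named list gene that loses or gains a 2-fold difference with the GC trend removed, or turns its direction, that value is given too, in brackets after the word GC-removed where it is not spelled out. The same ratio was also taken in up to 7 other cell classes of the 2 libraries (microglia-marker, endothelial-marker, collagen-rich cells and others, but not Thbs4-side astrocytes) and its median over those in which the gene was measured is given beside some genes.

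The astrocyte identity genes outside the rule were mostly higher in N-PRα-KO members: 11 of 13 were higher, 5 at least 2-fold and none 2-fold lower, with a median log2 ratio of 0.83 (0.29 with the GC trend removed, 0.94 in the astrocyte-led clusters). Gjb6 and Slc7a10, which helped to choose those clusters, are in this list. Fgfr3, the FGF receptor that marks astrocytes (chr5:33721674-33737068, plus strand), stood at 661 CPM (635 to 687) in N-PRα-KO and 71.1 CPM (64.4 to 78.3) in WT members, a log2 ratio of 3.22 (3.06 to 3.37) that was 3.25 with the GC trend removed and 3.32 in the astrocyte-led clusters. Aldh1l1, the folate enzyme used as a pan-astrocyte marker (chr6:90486427-90600203, plus strand), was at 271 CPM (254 to 288) in N-PRα-KO and 41.8 CPM (36.7 to 47.4) in WT members (2.70), and was detected in 41.8% of N-PRα-KO and 6.99% of WT members at 2000 UMIs. S100b, a calcium-binding protein, stood at 250.5 and 64.5 CPM (1.96), Ntsr2, a neurotensin receptor, at 955 and 283 CPM (1.75), and Gjb6 at 612 and 187 CPM (1.71). Ntsr2 had 0.83 after removal of the GC trend and its median ratio in the other classes was 2.50, larger than in members. The lower ones were Sox9, a gliogenic transcription factor, at 493 and 702 CPM (−0.51), and Cldn10, a claudin, at 336 and 438 CPM (−0.38). Ttyh1, a chloride channel family member, was nearly level at 2886 and 2768 CPM (0.06, GC-removed −0.23).

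Genes of the mature astrocyte were likewise higher in N-PRα-KO members, 16 of 20, with 9 past 2-fold and none 2-fold lower (median 0.65, 0.34 with the GC trend removed, 0.80 in the astrocyte-led clusters). Cst3, the secreted protease inhibitor cystatin C, stood at 12127 CPM (12015 to 12240) in N-PRα-KO and 1279 CPM (1250.1 to 1309) in WT members, a log2 ratio of 3.25. The same gene had a median ratio of 3.47 in the other classes, larger than in members. Aldh1l1 was the second largest in the list. Htra1, a secreted serine protease, stood at 1464 and 378 CPM (1.95), Clu, the lipoprotein clusterin, at 3102 and 953 CPM (1.70, and 0.48 with the GC trend removed), and Cbs, an enzyme of the transsulphuration pathway, at 188 and 65.7 CPM (1.51). Glul, the glutamine synthetase gene, stood at 8015 and 7045 CPM, a log2 ratio of 0.19, and Kcnj10, the inward rectifier Kir4.1, at 739 and 680 CPM, a ratio of 0.12.

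Genes of radial glia and immature astrocytes ran the other way. Of 20, 6 were higher, 1 past 2-fold, and 6 were at least 2-fold lower, with a median of −0.55 (−0.61 with the GC trend removed and −0.66 in the astrocyte-led clusters). Fabp7, the brain fatty acid binding protein (chr10:57784881-57788450, plus strand), stood at 1439.9 CPM (1402 to 1479) in N-PRα-KO and 7141 CPM (7072 to 7210.0) in WT members, a log2 ratio of −2.31 (−2.35 to −2.27). It was detected in 70.7% of N-PRα-KO and 97.6% of WT members at 2000 UMIs. Fabp7 was lower in the other classes too, by a median of −2.43. Its share of microglia-marker cells with a UMI was 5.19% (N-PRα-KO) and 21.3% (WT). Marcks, an actin-binding substrate of protein kinase C, stood at 525 and 1929 CPM (−1.88), Ptprz1, a receptor phosphatase of glial precursors, at 4037 and 11569 CPM (−1.52), and Sox11, a transcription factor of immature neural cells, at 50.5 and 144 CPM (−1.51). The 1 gene past 2-fold in the other direction was Sparc, a secreted matrix glycoprotein, at 3654 and 924 CPM (1.98, against 0.56 in the other classes).

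Division genes were lower in N-PRα-KO members. Of 16 listed, 10 reached 20 CPM in either library, none was higher and 9 were at least 2-fold lower (median −1.64). Ccnb1, a mitotic cyclin, stood at 4.05 CPM in N-PRα-KO and 22.9 CPM in WT members, Tpx2, a spindle protein, at 9.45 and 39.9 CPM, Cenpf, a kinetochore protein, at 8.64 and 34.0 CPM, and Ccna2, another cyclin, at 12.2 and 38.8 CPM. The WT cells with the most of these genes were the 88 of cluster 4, where Top2a stood at 858 CPM, and no N-PRα-KO cluster was led by division genes. In the astrocyte-led clusters only 2 of the 16 reached 20 CPM, with a median of −0.61, and Top2a stood at 10.1 and 18.1 CPM.

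Among 30 astrocyte transcription factors 9 were higher and 21 lower in N-PRα-KO members (median −0.52, −0.31 with the GC trend removed), 3 of them past 2-fold upwards and 4 downwards, which became 1 (Klf9) and 5 with that trend removed. Klf9, a target of thyroid and glucocorticoid hormone, stood at 486 and 166 CPM (1.55), Tsc22d4, a leucine zipper repressor, at 555 and 197 CPM (1.49, GC-removed 0.70), and Etv5, an ETS factor downstream of FGF signals, at 125 and 54.2 CPM (1.20, GC-removed 0.99). Sox2, the neural stem cell factor, stood at 330 and 747 CPM (−1.18, GC-removed −0.68). Of 14 Notch pathway genes measured, 4 were higher, 1 past 2-fold in each direction (median −0.49): Heyl, a Notch target, stood at 57.8 and 16.05 CPM (1.85), Hey2, another target, at 13.8 and 29.0 CPM (−1.07, GC-removed −0.62), the receptor Notch2 at 61.3 and 118 CPM (−0.94), and the fringe gene Rfng at 28.3 and 14.3 CPM (0.98, GC-removed −0.47). Hes5, a Notch target of radial glia, was lower at 59.1 and 109.9 CPM (−0.90, GC-removed −2.27).

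Regional genes tell astrocytes of the telencephalon from those of other brain regions. Of 8 telencephalic genes measured, 2 were higher and 6 lower in N-PRα-KO members (median −0.79, −0.42 with the GC trend removed). Otx1, a cortical homeobox gene, stood at 27.0 and 54.4 CPM (−1.01), Dmrta2 at 35.6 and 74.0 CPM (−1.06), and Mfge8, a phagocytosis bridging protein, was higher at 303 and 124 CPM (1.28, and −0.14 with the GC trend removed). Of 11 genes of astrocytes outside the telencephalon, 3 reached 20 CPM and all 3 were at least 2-fold higher as measured, but only Agt with the GC trend removed (median 1.82, then 0.61). Agt (chr8:124556534-124569706, minus strand) stood at 189.7 CPM (176 to 204) in N-PRα-KO and 11.4 CPM (8.81 to 14.5) in WT members, a log2 ratio of 4.06 (3.69 to 4.44). Its ratio was 3.08 with the GC trend removed, and 4.41 among the astrocyte-led clusters and 3.87 in Thbs4-side astrocytes. Only 1 other class reached 20 CPM of Agt, with a ratio of 0.16. Slc6a9, the glycine transporter GLYT1, stood at 149 and 42.3 CPM (1.82, and 0.37 with the GC trend removed), and Itih3, a hyaluronan-binding inhibitor chain, at 60.2 and 24.2 CPM (1.32, GC-removed 0.61).

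Of 11 genes that separate astrocytes of superficial and deep cortical layers, 8 were higher, 2 past 2-fold, and 2 were 2-fold lower (median 0.65, 0.09 with the GC trend removed). Myoc, a gene of astrocytes at the glial limit of the brain surface (chr1:162639155-162649693, plus strand), stood at 152 and 47.3 CPM (1.69), and Nupr1, a stress-induced chromatin protein, at 27.3 and 6.04 CPM (2.17, GC-removed 0.95). Chrdl1, a synapse-maturing BMP antagonist, stood at 127 and 366 CPM (−1.52), and Cd9, a tetraspanin, at 203.5 and 425 CPM (−1.06, GC-removed −0.80).

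Genes of transmitter uptake and metabolism had no common direction: 13 of 29 were higher, 5 past 2-fold up and 3 down, with a median of −0.13, next to the −0.12 of all genes. Slc38a3, a glutamine exporter, stood at 129 and 25.7 CPM (2.32; 0.92 with the GC trend removed and 3.38 in the other classes), Slc6a9 was as given above, and Adora1, an adenosine receptor, stood at 73.7 and 23.6 CPM (1.64, GC-removed 0.85). Grm5, the glutamate receptor mGluR5 that astrocytes express early in life (chr7:87584168-88134907, plus strand), stood at 68.0 CPM (59.9 to 77.0) in N-PRα-KO and 233 CPM (220.4 to 245) in WT members, a log2 ratio of −1.77 (−1.97 to −1.58), and was detected in 6.90% of N-PRα-KO and 28.2% of WT members at 2000 UMIs. The other class in which it could be measured gave −0.06.

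Potassium, water and acid-base transport genes gave 10 of 16 higher, 3 past 2-fold and none 2-fold lower (median 0.49, and 0.19 with the GC trend removed, when 1 was past 2-fold). Fxyd1, a sodium pump regulator, stood at 156 and 32.4 CPM (2.27, GC-removed 0.65), Lrrc8a, a volume-regulated anion channel subunit, at 110.1 and 44.4 CPM (1.31, GC-removed 0.72), and Kcnk1, the potassium channel TWIK-1, at 276 and 140.1 CPM (0.98, GC-removed 1.11). Of 15 dystrophin complex and endfoot genes, 8 were higher, 1 past 2-fold and 2 below (median 0.12, −0.13 with the GC trend removed): Sntb1, a syntrophin, stood at 9.18 and 28.0 CPM (−1.61), Dmd, dystrophin, at 82.0 and 175 CPM (−1.09), and Hepacam, the adhesion protein of MLC1 complexes, at 723 and 403 CPM (0.84). Of the 3 gap junction genes Gjb6 was higher, while Gjb2, connexin 26, stood at 38.1 and 31.4 CPM (0.28) and Gja1, connexin 43 and part of the rule, at 1636 and 1757 CPM (−0.10).

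Cholesterol genes were split. Of 24 measured, 10 were higher, 6 past 2-fold up and 3 down (median −0.31). The higher ones included Mvd, a mevalonate pathway enzyme, at 30.5 and 8.28 CPM (1.88), Lcat, the lipoprotein cholesterol acyltransferase, at 133 and 46.9 CPM (1.5003), and Apoe, the main astrocyte lipoprotein, at 7583 and 3292 CPM (1.20). Each of these came under 2-fold with the GC trend removed, at 0.34, 0.41 and 0.19, and no gene of the list passed 2-fold upwards then. The lower ones were Idi1, an isoprenoid isomerase, at 227 and 585 CPM (−1.37, GC-removed −0.96), Sc5d, a sterol desaturase, at 183 and 393 CPM (−1.104, GC-removed −0.99), and Lss, lanosterol synthase, at 68.6 and 144 CPM (−1.07, GC-removed −0.89). Of 17 fatty acid genes 9 were higher, 4 past 2-fold and 1 below (median 0.04, and −0.34 with the GC trend removed, when 1 was past 2-fold upwards). Fads2, a fatty acid desaturase, stood at 72.1 and 21.9 CPM (1.72, GC-removed 0.84), Acadvl, a mitochondrial acyl-CoA dehydrogenase, at 72.1 and 29.7 CPM (1.28, GC-removed 0.09), and Acsl3, an acyl-CoA ligase, at 751 and 334 CPM (1.17, and −0.06 in the other classes).

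Glycolysis, lactate and glycogen genes were higher in 18 of 25, 9 past 2-fold and none 2-fold lower, with a median of 0.76 that came to 0.01 with the GC trend removed. Pygm, glycogen phosphorylase, stood at 142 and 20.9 CPM, a log2 ratio of 2.77 that was 1.85 with the GC trend removed, 2.80 in the astrocyte-led clusters and 0.83 in the other classes. Slc2a1, the glucose transporter of endothelium and astrocytes, stood at 323 and 55.2 CPM (2.55), and at 162 and 50.7 CPM in the astrocyte-led clusters (1.67). Gapdh, a glycolytic enzyme, stood at 984 and 178 CPM (2.47, and 2.44 in the other classes), and Gpi1, glucose phosphate isomerase, at 179 and 41.8 CPM (2.10, GC-removed 0.85). Pgk1 at 303 and 328 CPM and Ldha at 160 and 156 CPM (0.03, GC-removed −0.63), both enzymes of the same pathway, were nearly level.

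Reactive astrocyte genes were taken from 3 lists. Of 13 genes raised in many kinds of reactive astrocytes, 7 were measured, 5 higher and 3 past 2-fold, with 1 2-fold lower (median 0.99, 0.89 with the GC trend removed). Hspb1, a small heat shock protein, stood at 57.8 and 6.90 CPM (3.06), Cp, ceruloplasmin, at 41.6 and 6.56 CPM (2.66), Serpina3n, a secreted serpin, at 48.3 and 12.8 CPM (1.92, GC-removed 0.98), and Cd44, the hyaluronan receptor, at 18.1 and 48.8 CPM (−1.43). Gfap (chr11:102887336-102900912, minus strand) stood at 1660 CPM (1619 to 1702) in N-PRα-KO and 837 CPM (813 to 861) in WT members, a log2 ratio of 0.99 that came to 0.09 with the GC trend removed and 1.23 in the astrocyte-led clusters. Those clusters were chosen in part by Gfap itself. Gfap was detected in 74.6% of N-PRα-KO and 46.1% of WT members at 2000 UMIs, but also in 24.96% of N-PRα-KO and 5.11% of WT microglia-marker cells. Its median ratio in the other classes was 2.33. Vim, vimentin, stood at 475 and 568 CPM (−0.26, GC-removed 0.02). Of the lipopolysaccharide-associated genes 6 of 13 were measured, all 6 higher and 5 past 2-fold (median 1.77, 0.59 with at most 10% mitochondrial UMIs): Fkbp5, a steroid receptor co-chaperone, stood at 25.4 and 2.24 CPM (3.50), the complement inhibitor Serping1 at 32.4 and 6.90 CPM (2.23), the proteoglycan Srgn at 58.3 and 13.1 CPM (2.15), and the adhesion gene Amigo2 at 33.7 and 12.9 CPM (1.38). Srgn, which endothelial and immune cells also express, stood at 10.5 and 4.35 CPM in the astrocyte-led clusters (1.27). Of the ischaemia-associated genes 4 of 12 were measured and had no common direction, with Tm4sf1, a membrane protein, at 136 and 42.3 CPM (1.68) and Ptx3, a pentraxin, at 4.86 and 30.7 CPM (−2.66). Tm4sf1 came to 31.1 and 9.66 CPM in the astrocyte-led clusters (1.69).

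Signals and matrix differed gene by gene. Of 26 BMP, TGF-beta and FGF genes 9 were higher, 3 past 2-fold and 2 below (median −0.55). Beside Fgfr3 and Etv5, Tgfbr2, a TGF-beta receptor, stood at 51.6 and 20.2 CPM (1.35). Tgfbr2 was under 20 CPM in the astrocyte-led clusters of both libraries, at 14.7 and 7.25 CPM (1.02). The FGF feedback inhibitors Spry2 and Spry4 stood at 110.1 and 306 CPM (−1.47, GC-removed −0.94) and at 17.5 and 44.0 CPM (−1.33). Of the 6 PDGF genes 4 were measured: Pdgfb, a ligand, stood at 22.4 and 8.28 CPM (1.44, GC-removed 0.64), Pdgfa, the ligand of the deleted receptor, at 29.1 and 27.3 CPM (0.10), and Pdgfrb, the other receptor, at 36.2 and 22.8 CPM (0.67, GC-removed −0.15). Pdgfb came to 6.31 and 2.42 CPM in the astrocyte-led clusters. Pdgfra, at 32.9 and 111 CPM, had a log2 ratio of −1.75 in members and a median of −2.36 in the other classes, with 25.2 and 199 CPM in microglia-marker cells.

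Of 21 growth factor and guidance genes 8 were higher, 1 past 2-fold and 4 below (median −0.15). The higher one was Edn1, endothelin 1, at 62.9 and 2.42 CPM (4.70), but in the N-PRα-KO library it stood at 443 CPM in the endothelial-led cluster 3 and at 8.03 CPM in the rest of the members. The lower ones included Epha4, an ephrin receptor, at 24.6 and 80.1 CPM (−1.70), Angpt1, a vessel-stabilising ligand, at 65.9 and 148 CPM (−1.17, GC-removed −0.73), and Ptn, the growth factor pleiotrophin that binds Ptprz1, at 3510.3 and 7358 CPM (−1.07). Of 17 synapse-acting genes 7 were higher, 2 past 2-fold and 3 below (median −0.19): beside Sparc and Chrdl1, the phagocytic receptor Mertk stood at 228 and 95.3 CPM (1.26) and the synaptic adhesion gene Lrrc4c at 28.9 and 58.5 CPM (−1.02, GC-removed −0.59). Of 18 matrix genes 10 were higher, 5 past 2-fold and 3 below (median 0.23, −0.38 with the GC trend removed). Col4a2 and Col4a1, basement membrane collagens, stood at 333 and 30.9 CPM (3.43) and at 531 and 114 CPM (2.21). In the astrocyte-led clusters Col4a2 stood at 204 and 12.3 CPM (4.05). Sdc4, a syndecan, stood at 520 and 118 CPM (2.14), and Vcan, the proteoglycan versican, at 55.6 and 216 CPM (−1.96). Of 14 calcium and cilium genes 10 were higher and 7 past 2-fold, none 2-fold lower (median 1.02, 0.18 with the GC trend removed), among them Adcy2, an adenylate cyclase, at 61.5 and 17.3 CPM (1.83), Itpr1, a calcium release channel, at 23.5 and 6.73 CPM (1.80), and S100a13, a calcium-binding protein, at 127 and 39.7 CPM (1.68, GC-removed 0.68).

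**Figure D3:**
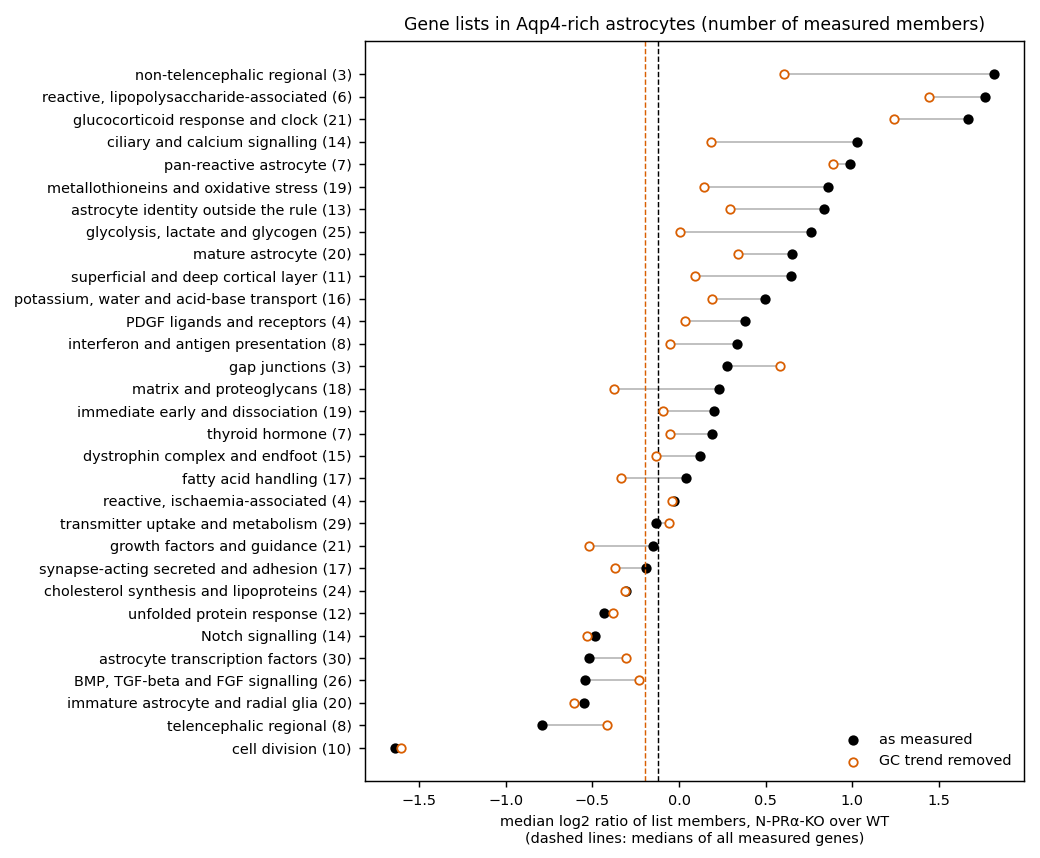
Median log2 ratio, N-PRα-KO members over WT members, for each of the 31 gene lists, as measured and with the trend on GC content removed, with the medians of all genes as dashed lines. The glucocorticoid and clock list (1.67 as measured, 1.24 with the trend removed) stays to the right of all genes in both, the cell division list (−1.64 and −1.61) to the left, and the glycolysis list moves from 0.76 as measured to 0.01 with the trend removed.

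Genes of the glucocorticoid response and the circadian clock were the list with the most members past 2-fold. Of 21 measured, 16 were higher in N-PRα-KO members, 14 at least 2-fold and none 2-fold lower (median 1.67; 1.24 with the GC trend removed, with 13 past 2-fold; 1.54 in the astrocyte-led clusters, with 12 past 2-fold). Txnip, the thioredoxin-binding protein induced by glucose and glucocorticoid (chr3:96557957-96561883, plus strand), stood at 265 CPM (248 to 282) in N-PRα-KO and 10.2 CPM (7.75 to 13.1) in WT members, a log2 ratio of 4.70 (4.32 to 5.11). In the astrocyte-led clusters it stood at 151 and 4.11 CPM (5.20), and in the other classes its median ratio was 3.09. At 2000 UMIs it was detected in 34.9% of N-PRα-KO and 1.996% of WT members, and in 58.8% and 34.97% of microglia-marker cells, which express this gene and so give no background for it. Fkbp5 had the ratio given above, with a median of 0.74 in the other classes. Zbtb16, a zinc finger repressor induced by glucocorticoid, stood at 28.9 and 2.93 CPM (3.30), Hif3a, a hypoxia-inducible factor subunit, at 26.5 and 3.11 CPM (3.09), Per1, a clock repressor that glucocorticoid also induces, at 92.3 CPM (82.8 to 103) and 12.9 CPM (10.2 to 16.2), a ratio of 2.83, and Nfkbia, the NF-kappa-B inhibitor, at 263 and 53.3 CPM (2.30).

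Within this list the clock genes had no common direction. Per1 and Ciart, repressors of the clock, were higher, Ciart at 20.5 and 5.87 CPM (1.81), and so was Nr1d1, the REV-ERB alpha receptor, at 372 and 139.95 CPM (1.41, and 0.12 with the GC trend removed). The activators Arntl and Clock were lower, at 22.4 and 39.4 CPM (−0.81) and at 31.0 and 48.5 CPM (−0.64), and so were Nr1d2, a receptor of the REV-ERB pair, at 48.6 and 94.7 CPM (−0.96), and Per3, a period gene, at 32.7 and 42.1 CPM (−0.37). The time of day at which the tissue was taken is not among the labels. The other glucocorticoid-induced genes Sgk1, a kinase, and Tsc22d3, the leucine zipper GILZ, stood at 47.2 and 14.8 CPM (1.67) and at 134 and 47.1 CPM (1.51).

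The promoters of 3 of these genes are shown because they hold the CACGTG E-box, the element bound by the CLOCK and BMAL1 (Arntl) pair. The windows run from 250 bases before to 50 bases after the start, 300 bases in all, from RefSeq on GRCm38.p6, each written along its gene's strand with each CACGTG in capitals. They lie at chr11:69098699-69098998 (plus strand) for Per1, which has 2 promoters in the table, chr3:95882179-95882478 (minus strand) for Ciart and chr17:28486100-28486399 (minus strand) for Fkbp5.
Per1: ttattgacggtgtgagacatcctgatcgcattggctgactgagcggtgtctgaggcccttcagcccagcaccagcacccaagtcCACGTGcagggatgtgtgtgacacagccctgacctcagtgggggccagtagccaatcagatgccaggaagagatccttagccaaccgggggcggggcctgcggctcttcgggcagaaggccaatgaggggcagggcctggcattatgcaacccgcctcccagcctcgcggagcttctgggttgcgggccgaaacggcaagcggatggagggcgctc
Ciart: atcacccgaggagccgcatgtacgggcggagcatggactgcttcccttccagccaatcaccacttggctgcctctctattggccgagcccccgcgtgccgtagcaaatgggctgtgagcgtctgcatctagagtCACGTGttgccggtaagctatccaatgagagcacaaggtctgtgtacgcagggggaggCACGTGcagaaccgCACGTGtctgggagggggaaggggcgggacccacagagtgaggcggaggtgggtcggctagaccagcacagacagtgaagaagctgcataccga
Fkbp5: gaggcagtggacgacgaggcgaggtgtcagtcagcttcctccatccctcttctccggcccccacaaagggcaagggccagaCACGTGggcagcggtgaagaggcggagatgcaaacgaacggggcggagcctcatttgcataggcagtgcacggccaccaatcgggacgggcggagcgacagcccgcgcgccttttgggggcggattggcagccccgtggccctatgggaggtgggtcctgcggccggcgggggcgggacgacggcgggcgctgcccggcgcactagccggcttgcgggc
Ciart held 3 copies and Per1 and Fkbp5 1 each in these windows. The motif reads the same on both strands. It was found in 6 of the 33 promoters of the 20 list members that matched the table (21 were measured, Zbtb16 did not match), in the genes Ciart, Fkbp5, Per1, Sgk1 and Tef. It was also found in 7.15% of all 32851 promoters and in 10.02% of the promoters of measured genes. A match describes the letters of the window and not a bound site.

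Stress genes were mixed. Of 19 metallothionein and oxidative stress genes 12 were higher and 7 past 2-fold, none 2-fold lower (median 0.86, 0.14 with the GC trend removed). Mt1 and Mt2, metallothioneins that bind zinc and are induced by metal and glucocorticoid, stood at 3352 and 658 CPM (2.35) and at 894 and 151 CPM (2.57), with median ratios of 2.71 and 3.07 in the other classes. Gpx4 and Gpx1, glutathione peroxidases, stood at 71.8 and 20.2 CPM (1.83, GC-removed 0.46) and at 61.0 and 19.2 CPM (1.67, GC-removed 0.60). Of 19 immediate early and dissociation-associated genes 13 were higher, 4 past 2-fold and 1 below (median 0.20, −0.09 with the GC trend removed). Fos, the immediate early transcription factor, was lower at 99.9 CPM (89.9 to 111) in N-PRα-KO and 468 CPM (451 to 486) in WT members (−2.23), while Ppp1r15a, a stress phosphatase subunit, stood at 48.6 and 6.39 CPM (2.93), Klf2 at 86.1 and 20.5 CPM (2.07), and Klf4 at 74.8 and 29.8 CPM (1.32). Klf4, a factor that endothelium also expresses, stood at 23.1 and 20.1 CPM in the astrocyte-led clusters (0.21), and Klf2 at 33.2 and 7.01 CPM (2.25). Of 8 interferon and antigen presentation genes measured of 21 listed, 5 were higher and 2 past 2-fold (median 0.33, −0.05 with the GC trend removed), Ifitm3 at 171 and 44.5 CPM (1.94) and H2-D1 at 83.1 and 38.7 CPM (1.105, GC-removed 0.95). Of 12 unfolded protein response genes 4 were higher and 2 past 2-fold (median −0.43), Herpud1 at 99.6 and 44.0 CPM (1.18) and the chaperone Calr at 542 and 266 CPM (1.03, GC-removed 0.55), while Hspa5, the chaperone BiP, stood at 537 and 726 CPM (−0.44). Of 7 thyroid hormone genes 4 were higher (median 0.19, −0.05 with the GC trend removed), and Dio2, the deiodinase with which astrocytes make active hormone, was nearly level at 737 and 645 CPM (0.19).

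Outside the lists, genes were named by size among those at 50 CPM or more that kept a 2-fold difference with the GC trend removed and were not over 3 times higher in another class, which left 126 higher and 98 lower. The 12 highest were Txnip, Sult1a1, Bc1, Qsox1, Ttr, Uqcr11, Agt, Cyp46a1, Slc35e4, Rhou, Pim3 and Cox4i1. Sult1a1, a phenol sulphotransferase, stood at 60.2 CPM (52.6 to 68.6) in N-PRα-KO and 2.59 CPM (1.45 to 4.27) in WT members, a log2 ratio of 4.54 (1.24 in the other classes). Rhou, an atypical small GTPase, stood at 115 CPM (104 to 126) in N-PRα-KO and 8.46 CPM (6.26 to 11.2) in WT members, a ratio of 3.76 (0.92 in the other classes), and Pim3, a serine kinase, at 53.7 and 4.14 CPM, a ratio of 3.70 (0.86 in the other classes). These 3 and Agt were those of the 12 highest whose median ratio in the other classes was below 2. Single classes went higher for 2 of them. Sult1a1 ranged from 0.49 to 3.15 over 4 classes, with 3.15 in endothelial-marker cells, and Pim3 from −0.61 to 2.34 over 7. Rhou ranged from −0.10 to 1.24 over 3 classes, and Agt was measured in only 1. In Thbs4-side astrocytes, which are not among those classes, Rhou gave 3.24 and Pim3 3.93, close to members, and Sult1a1 did not reach 20 CPM. For Bc1, a neuronal noncoding RNA (116 and 5.35 CPM), Qsox1, a sulphydryl oxidase (60.2 and 3.45 CPM), Uqcr11, a subunit of respiratory complex III (144 and 8.63 CPM), Cyp46a1, the brain cholesterol hydroxylase (54.5 and 3.28 CPM), Slc35e4 (56.9 and 3.62 CPM) and Cox4i1, a cytochrome oxidase subunit (395 and 31.6 CPM), the ratios were 3.64 to 4.43 and those of the other classes 2.74 to 4.56. Ttr, at 1827 and 106 CPM, was detected at 2000 UMIs in 97.6% of N-PRα-KO and 18.4% of WT members and in 95.5% and 17.6% of microglia-marker cells, a like share. The source of this RNA was not tested.

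The 12 lowest were Pcdh8, Fgfbp3, Egln3, Fabp7, Nipsnap3b, Marcks, Wsb1, Crls1, Grm5, Gramd4, Magee1 and Fgf13. Pcdh8, a protocadherin, stood at 10.8 CPM (7.71 to 14.7) in N-PRα-KO and 73.0 CPM (66.2 to 80.3) in WT members, a ratio of −2.76. Fgfbp3, a secreted FGF carrier (chr19:36917550-36919615, minus strand), stood at 51.3 CPM (44.3 to 59.1) in N-PRα-KO and 302 CPM (288 to 316) in WT members, a ratio of −2.56, and was detected in 9.48% of N-PRα-KO and 30.7% of WT members at 2000 UMIs, against 1.01% and 1.02% of microglia-marker cells. In the WT library it was among the leading genes of the Myoc and Gfap cluster, at 664 CPM. Egln3, an oxygen-sensing prolyl hydroxylase, stood at 12.4 and 63.0 CPM, a ratio of −2.34 (0.04 in the other classes, but −2.06 in Thbs4-side astrocytes). Fabp7, Marcks and Grm5 are described above. The rest ranged from 16.2 and 65.7 CPM for Nipsnap3b (−2.02) to 16.7 and 52.5 CPM for Fgf13, an intracellular FGF-like protein (−1.65). Most of the lowest genes were lower in the other classes too. Median ratios there were −1.37 for Nipsnap3b, −1.25 for Pcdh8, −1.24 for Wsb1, −1.14 for Magee1 and −0.96 for Gramd4. They were −0.91 for Marcks, −0.86 for Crls1, −0.77 for Fgfbp3 and −0.67 for Fgf13. In microglia-marker cells Wsb1 gave −1.92, beside −1.87 in members. Over the alternative settings Agt kept a ratio between 3.08 and 4.41, Txnip between 4.53 and 5.31 and Fgfbp3 between −2.65 and −1.19, while Fgf13 came to −0.59 and Magee1 to −0.75 at their weakest.

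**Figure D4:**
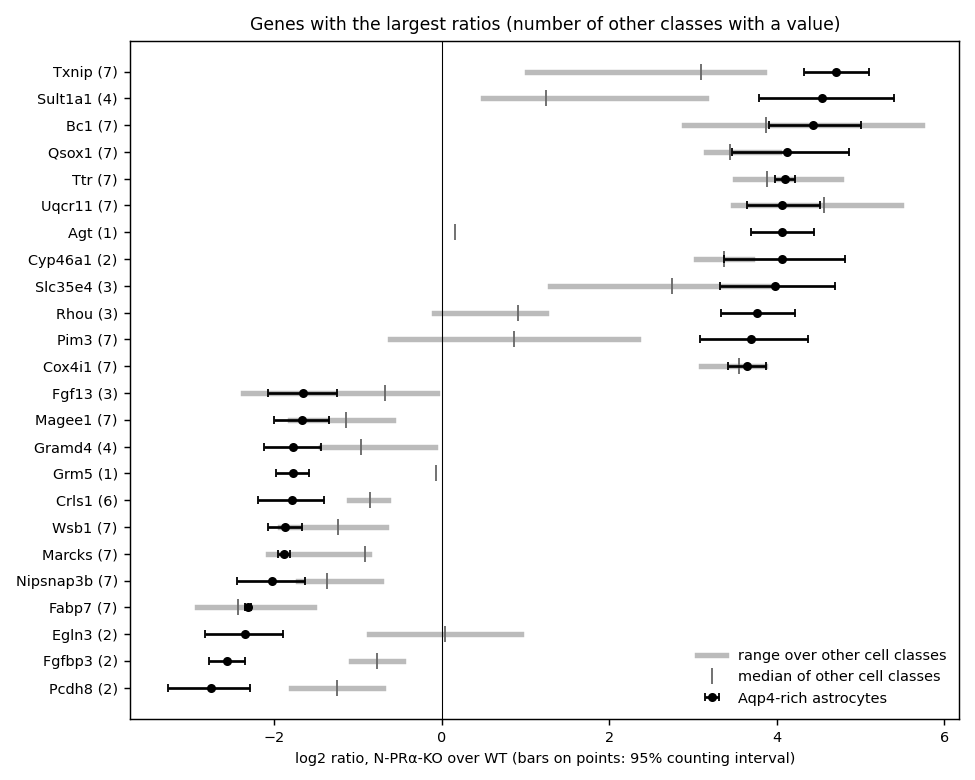
Log2 ratio, N-PRα-KO members over WT members, for the 12 highest and 12 lowest named genes (points with exact 95% counting intervals) beside the median and range of the same ratio over the other cell classes. Agt, Rhou, Pim3 and Sult1a1 stand well to the right of their other-class medians (0.16, 0.92, 0.86 and 1.24), which leave out Thbs4-side astrocytes (3.87 for Agt, 3.24 for Rhou and 3.93 for Pim3), while Ttr, Uqcr11 and Cox4i1 lie close to theirs.

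Members were set against Thbs4-side astrocytes within each library, as a description, since the same counts chose both classes. Of 6399 genes, 235 (3.67%) were at least 2-fold higher in members in both libraries and 447 (6.99%) at least 2-fold lower in both. The 8 highest were Gabbr2, Grm5, Myoc, Vldlr, Pla2g3, Kcnj16, Hbegf and Arpp21. Gabbr2, a GABA-B receptor subunit, stood at 306 CPM in members and 7.54 CPM in Thbs4-side cells of the N-PRα-KO library (log2 ratio 5.34), and at 334 and 6.19 CPM in the WT library (5.76). Grm5 stood at 68.0 and 1.08 CPM in N-PRα-KO cells (4.39, 2.83 to 6.68, the lower count set to 3 UMIs) and at 233 and 10.8 CPM in the WT library (4.43), so it separated the classes in both libraries and was also lower in N-PRα-KO than in WT members. Kcnj16, the potassium channel subunit Kir5.1, stood at 226 and 10.8 CPM (4.39) and at 187 and 12.4 CPM (3.92). Hbegf, an EGF receptor ligand, stood at 167 and 11.9 CPM (3.81) and at 188 and 12.4 CPM (3.92), and Vldlr, a lipoprotein receptor, at 71.0 and 2.16 CPM (4.46, 2.89 to 6.74, the lower count set to 3 UMIs) and at 157 and 9.28 CPM (4.08).

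The 8 lowest in members were Cdon, Tfap2c, Pawr, Pter, Veph1, Bcat1, Vnn1 and Adamts18. Cdon, a Hedgehog co-receptor, stood at 5.13 CPM in members and 67.9 CPM in Thbs4-side cells of the N-PRα-KO library (−3.73), and at 7.08 and 79.9 CPM in the WT library (−3.50). Tfap2c, a transcription factor of neural progenitors, stood at 4.05 and 49.6 CPM (−3.61) and at 11.6 and 125 CPM (−3.43), and Vnn1, a pantetheinase, at 3.51 and 65.7 CPM (−4.23) and at 14.5 and 104 CPM (−2.84). Gfap was lower in members than in Thbs4-side cells in both libraries, at 1660 and 2469 CPM (N-PRα-KO) and 837 and 1236 CPM (WT). Several differences between the libraries had like sizes in both classes: over WT, N-PRα-KO Thbs4-side cells gave 3.23 for Fgfr3, 3.41 for Aldh1l1, −2.39 for Fabp7, −2.58 for Fgfbp3, 4.79 for Txnip and 3.20 for Per1, beside 3.22, 2.70, −2.31, −2.56, 4.70 and 2.83 in members. Genes whose ratio was small in the other classes gave 3.12 (Pygm), 1.59 (Acsl3), 2.55 (Fkbp5) and 1.053 (Sparc) in Thbs4-side cells, beside 2.77, 1.17, 3.50 and 1.98 in members. Gjb6 gave 0.97 there and 1.71 in members. Whether any of these pairs differ was not tested, because each rests on 1 library per genotype.

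**Figure D5:**
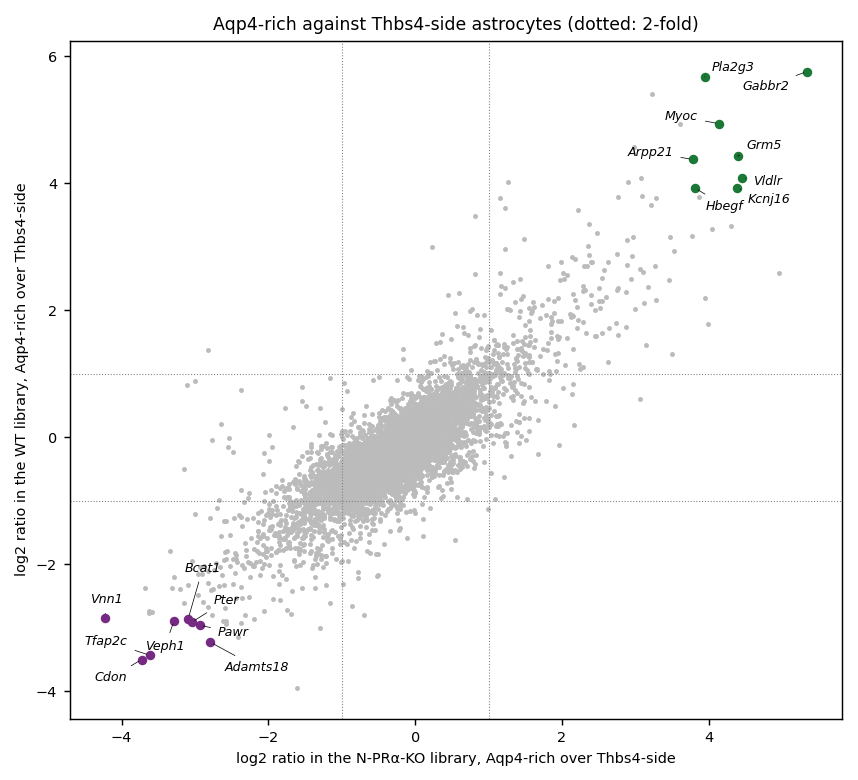
Log2 ratio of Aqp4-rich over Thbs4-side astrocytes in the N-PRα-KO library (horizontal) and in the WT library (vertical), 1 point per gene, with the 16 named genes marked. Gabbr2 lies at 5.34 and 5.76 in the upper right, and Cdon at −3.73 and −3.50 in the lower left.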

How the data were processed

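Single-cell RNA-seq of cortical cells enriched for CD140a was analysed in 1 N-PRα-KO and 1 WT library. The deposited values are raw UMI counts per gene and cell, made, per the file headers, by the BD Rhapsody WTA Analysis Pipeline 1.10 (N-PRα-KO) and 1.10.1 (WT) with GENCODE M19 on GRCm38. The builds GRCm38 and mm10 also stand in the submitters' processing notes, and no source used here names the aligner. Cells are not replicates, so counts were summed over the members of each library and scaled to CPM.

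The members, the 31 gene lists and the comparisons were chosen with earlier results of these data known. Ratios are log2 of N-PRα-KO over WT CPM with exact 95% conditional intervals, among genes that reach 20 CPM in either library, with counts under 3 set to 3. GC content is that of the last 500 bases of each gene's longest transcript (GENCODE M21 on the same GRCm38), and the trend was fitted by lowess (fraction 0.3). From each list the 4 genes of largest ratio are named, and others added after their values were seen. The other named genes are the 12 highest and 12 lowest at 50 CPM or more with a 2-fold difference also after the GC step. The rule's genes, mitochondrial, ribosomal protein, haemoglobin, predicted and sex-linked marker genes were left out, and so were genes over 3 times higher in another class. From the Thbs4-side comparison 8 genes a side are named, and from each cluster 5. A few genes that these rules select are not reported here. Shares of cells with a UMI use cells thinned to 2000 UMIs. Members were clustered per library (1000 variable genes, 20 components, 15 neighbours, Leiden resolution 0.5). Doublets were not removed. Scrublet marked 10 N-PRα-KO cells (0.238%, too few to rely on) and 174 WT cells (1.73%), of which 1 and 26 were members, and their removal is an alternative. Ratios and intervals were tested on simulated data. Python 3.11.15, numpy 2.4.6, scipy 1.17.1, pandas 2.3.3, scanpy 1.11.5, leidenalg 0.10.2, statsmodels 0.14.6, matplotlib 3.10.9, R 4.3.3 and edgeR 4.0.16 (for TMM factors only) were used.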

Additional observations from a re-analysis of the deposited data

How the results depend on the processing

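No paired analysis was possible because each genotype has 1 library and no test was made. The share of Aqp4-rich astrocytes among kept cells, 13.3% in both libraries, came to 12.04% in N-PRα-KO and 9.99% in WT with at most 10% mitochondrial UMIs (59 of 490 and 191 of 1912 cells), 11.9% and 12.4% with the astrocyte genes of the rule at 1% or more, 11.7% and 11.6% with at least 3 UMIs of Aqp4, Slc6a11 and Slc4a4, and 19.1% and 15.6% with at most 50% mitochondrial UMIs. Thinned to 2000 UMIs before the rule, the shares were 11.96% in N-PRα-KO and 12.8% in WT. The 1209 genes at least 2-fold higher in N-PRα-KO members became 3719 with a minimum of 3 UMIs, 281 at 100 CPM and 667 with the GC trend removed, and lay between 1023 and 1463 under the other settings. The 593 lower genes became 1285 with a minimum of 3 UMIs, 179 at 100 CPM and 1264 with at most 10% mitochondrial UMIs, and lay between 538 and 813 otherwise. The last setting leaves few cells, and the minimum changes how many genes are counted. Against Thbs4-side astrocytes, 105 genes were higher and 102 lower at 100 CPM. List medians stayed within 0.5 of their value in 372 recomputations and moved further in 21, and the log2 ratios of named genes stayed within their counting interval in 244 and left it, with the same sign, in 56. Most of those that moved did so with the GC trend removed or the stricter mitochondrial limit. The median of the PDGF list, 0.38 over 4 genes, came to −0.28 in the astrocyte-led clusters and −0.53 with at most 10% mitochondrial UMIs. The lists of ischaemia-associated, fatty acid, matrix, immediate early and growth factor genes, with medians near 0, also changed sign under at least 1 setting, as the transmitter, endfoot, interferon and thyroid lists did. The limit of 50% mitochondrial UMIs, the removal of members with 1% or more on another type's markers and the restriction to astrocyte-led clusters were chosen after seeing the data. Cause was not tested.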
